A study of Mus musculus with 9 samples.

Results

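The 10 genes described here write, keep, read or remove DNA methylation, or write the Polycomb mark on histone H3. They are *Dnmt1*, *Uhrf1*, *Dnmt3a* and *Dnmt3b* of the DNA methylation machinery, *Tet1*, *Tet2* and *Tet3* of the oxidizing machinery, and *Ezh2*, *Ezh1* and *Suz12* of Polycomb repressive complex 2 (PRC2). They were chosen by name, and their symbols were matched to the Entrez Gene identifiers of the expression files, which found 10 of 10 among 19369 genes listed in any sample. A gene absent from the list of a sample was taken as 0 in it, and none of the 10 was absent from any sample. RNA-Seq was performed on wild-type C57/B6 mouse embryos with 3 biological replicates at each of 3 embryonic days (E10.5, E14.5, E16.5) and no genetic or drug treatment. The E10.5 samples held the periocular neural crest (pNC), the migratory mesenchyme around the early eye, after dispase treatment and removal of the ectoderm, lens vesicle and optic cup. The E14.5 and E16.5 samples held whole corneas, so that each sample was a pool of several eyes and an average over all cell types in the dissected tissue. Tissue therefore changed together with age between E10.5 and the later stages, and their effects cannot be told apart.

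DNA methylation places a methyl group on cytosine, mostly where a guanine follows. New marks are set by the de novo enzymes DNMT3A and DNMT3B, and after DNA replication UHRF1 recognizes the half-methylated DNA and brings in DNMT1, which copies the mark to the new strand. TET enzymes oxidize the methyl group, the first step of active removal. PRC2 methylates lysine 27 of histone H3, a mark of silenced developmental genes. Its catalytic subunit is either EZH2, typical of dividing cells, or EZH1, typical of cells that have stopped dividing, and it needs SUZ12 to hold together. In neural crest and its derivatives both systems are known for keeping genes of other lineages silent while cells differentiate.

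Totals of expected counts, which are estimated read numbers per gene, ranged from 8745161 to 9069023 per sample, and 16967 to 17275 genes were listed. Corneal epithelial markers (*Krt5*, *Krt14*, *Krt15*, *Krt12*, *Cdh1* and *Epcam*) summed to 21.9 to 29.6 FPKM (a level scaled to transcript length and library size) in the pNC, 530.5 to 1942 in E14.5 corneas and 5029 to 7321 in E16.5 corneas. Keratocyte markers (*Kera*, *Lum*, *Dcn*, *Col1a1* and *Col8a2*) summed to 94.2 to 146, 2120 to 5441 and 8224 to 9866 FPKM at the same stages. Of the 6 epithelial markers, 5 rose from E14.5 to E16.5 (edgeR adjusted p under 0.05). *Epcam* fell over that step (means of 38.6 and 25.6 FPKM, edgeR adjusted p = 0.0076). Of the 5 keratocyte markers 4 rose, and *Col8a2* did not pass (means of 192 and 157 FPKM, edgeR adjusted p = 0.671). Between these stages 17.5% of all genes tested rose. Cranial crest markers went apart. *Alx1* had means of 55.9, 0.833 and 0.0467 FPKM over the stages and *Alx4* of 66.0, 16.2 and 4.10, and *Pax3* and *Zic1* fell as well, while *Twist1* had means of 132, 164 and 139.5 FPKM (edgeR adjusted p = 0.177 between E10.5 and E16.5). One library stood apart from its stage in these corneal markers and in correlation. E14.5 replicate 1 held the highest epithelial sum (1942 FPKM) and the highest keratocyte sum (5441 FPKM) of its stage, and its mean correlation with the E16.5 samples (0.962) equalled that with the other E14.5 samples (0.962), against 0.918 and 0.926 with E16.5 for the other E14.5 replicates. Fold changes of the members to and from E14.5 are therefore also given without it.

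Levels of the members took several courses over the stages. *Uhrf1*, *Dnmt3b*, *Ezh2* and *Dnmt1* were highest in the pNC and fell at each later stage. *Tet3* and *Ezh1* rose at each stage. *Dnmt3a*, *Tet1*, *Tet2* and *Suz12* neither fell nor rose at each stage by the criterion below, and their courses differed. Like *Tet3*, they changed by less than 2-fold in every comparison. A gene is said here to have risen or fallen when edgeR's quasi-likelihood test gave a Benjamini-Hochberg adjusted p under 0.05 over all 14771 genes tested (edgeR adjusted p), and is called when the change was also at least 2-fold. All 10 members passed the filter on low counts. The 3 comparisons share samples, so they are not independent of each other.

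**Figure D1:**
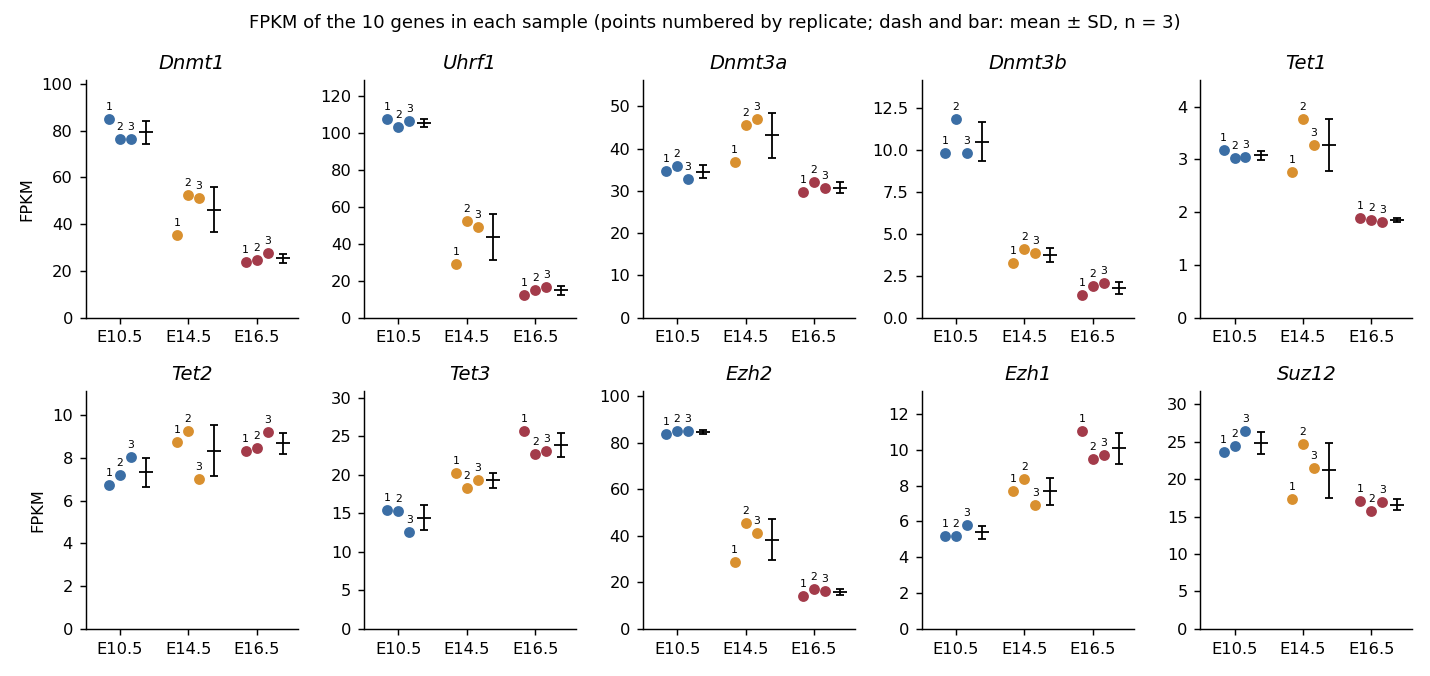
FPKM (vertical axis, starting at 0 and scaled per gene) of each member in the 9 samples, grouped by stage, with points numbered by replicate and dashes with bars for the mean ± SD of 3 samples. *Dnmt1*, *Uhrf1*, *Dnmt3b* and *Ezh2* step down from E10.5 to E16.5, *Tet3* and *Ezh1* step up, and replicate 1 is the lowest E14.5 sample for *Dnmt1*, *Uhrf1*, *Dnmt3a*, *Dnmt3b*, *Tet1*, *Ezh2* and *Suz12*.

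From E10.5 to E14.5, 3 members were called lower (*Uhrf1*, *Dnmt3b* and *Ezh2*) and 0 higher, where 7.97% of all genes tested were called lower and 13.6% higher, 21.6% in all. With no fold minimum, 4 members fell and 3 rose, against 56.4% of all genes in either direction. From E10.5 to E16.5, 4 members were called lower (*Uhrf1*, *Dnmt3b*, *Ezh2* and *Dnmt1*) and 1 higher (*Ezh1*), against 15.4% and 19.4% of all genes and 34.8% in all. With no fold minimum, 6 fell and 3 rose, against a background of 69.8%. From E14.5 to E16.5, 2 members were called lower (*Uhrf1* and *Ezh2*) and 0 higher, against 5.47% and 6.26% of all genes and 11.7% in all, while 6 fell and 2 rose with no fold minimum, against 35%. The median log2 fold change of the members was -0.09, -0.51 and -0.49 in these comparisons, beside 0.01, 0.0006 and -0.02 over all genes tested. Without E14.5 replicate 1, 2 members were called lower between E10.5 and E14.5, since *Ezh2* then fell by 0.98 on the log2 scale, and 3 between E14.5 and E16.5, since *Dnmt3b* then reached -1.0004. Without E14.5 replicate 2, 1 member was called lower between E14.5 and E16.5, with *Ezh2* at -0.99. In FPKM alone, the comparison of E14.5 with the pNC had 3 members wholly higher and 4 wholly lower (31.4% and 29.6% of all genes tested), 3 higher and 7 lower when E16.5 was set against E10.5 (33% and 44.1%), and 2 higher and 7 lower when it was set against E14.5 (14.8% and 38.3%).

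**Figure D2:**
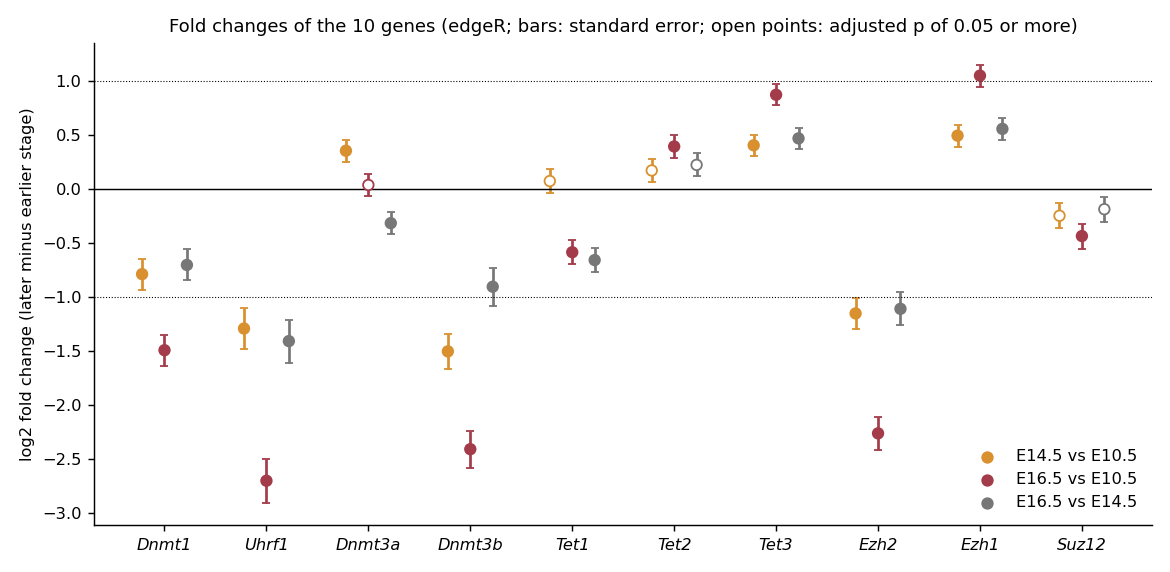
log2 fold change (later minus earlier stage, edgeR) of each member in the 3 comparisons, with bars for the standard error; filled points have an adjusted p under 0.05 and dotted lines mark a 2-fold change. *Uhrf1* (-2.71), *Dnmt3b* (-2.41) and *Ezh2* (-2.27) lie lowest between E10.5 and E16.5, and *Ezh1* (1.05) is the only point above the upper line.

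*Dnmt1*, the maintenance methyltransferase (chromosome 9, 20907206 to 20959888, GRCm38), had FPKM values of 84.83, 76.44 and 76.55 in the E10.5 replicates, 35.21, 52.39 and 51.05 at E14.5, and 23.93, 24.66 and 27.57 at E16.5. The stages did not overlap, and E14.5 replicate 1 lay nearest to the E16.5 samples. *Dnmt1* fell by 0.79 on the log2 scale between E10.5 and E14.5 (SE 0.14, edgeR adjusted p = 0.000829) and by a further 0.71 (SE 0.14, edgeR adjusted p = 0.00419) to E16.5. Over the whole interval the log2 fold change was -1.495 (SE 0.15, edgeR adjusted p = 5.31e-06), a level 2.82-fold lower at E16.5. Without E14.5 replicate 1 the first of these steps was -0.62 and the second -0.87.

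*Uhrf1*, which guides DNMT1 to newly replicated DNA (chromosome 17, 56303337 to 56323486), also fell at each stage. Its FPKM was 107.12, 103.02 and 105.99 at E10.5, 29.08, 52.23 and 49.02 at E14.5, and 12.17, 15.14 and 16.73 at E16.5. No sample of one stage overlapped another stage, and at E14.5 replicate 1 was well below the other two. The log2 fold change was -1.29 (SE 0.19, edgeR adjusted p = 0.000258) from E10.5 to E14.5, -1.41 (SE 0.20, edgeR adjusted p = 0.00089) from E14.5 to E16.5 and -2.71 (SE 0.21, edgeR adjusted p = 1.02e-06) overall. Leaving out E14.5 replicate 1 gave -1.07 and -1.64 for the first and second steps. The ratio of *Uhrf1* to *Dnmt1* FPKM was 1.26 to 1.38 in the pNC, 0.826 to 0.997 in E14.5 corneas and 0.509 to 0.614 at E16.5, so that *Uhrf1* exceeded *Dnmt1* in every pNC sample and was below it in every corneal sample.

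The promoters of all 10 members were searched for the letters that E2F factors, which switch on genes of DNA replication, are known to bind. The motifs were TTTCCCGC, TTTGGCGC, TTTCGCGC and TTTGCCGC on both strands, and the windows ran from 250 bases before to 50 after each RefSeq start site (GRCm38.p6). Both the motif and the genes were chosen with the expression results known. Of 32851 such windows, 744 (2.265%) held at least 1 of the 4 motifs, which belong to 704 of 27025 genes (2.605%). Among the 10 members, with 15 windows in all, 4 had a match: *Dnmt1*, *Uhrf1*, *Ezh2* and *Suz12*. The matches are shown with their surroundings, in 30 bases on the strand of the gene, with the motif in capitals and the position of its first base counted from the start site.
Dnmt1, from position -219 of an internal start, chr9:20952824-20952853, motif on the opposite strand: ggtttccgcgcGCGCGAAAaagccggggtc
Dnmt1, from position 34 of the same start, chr9:20952574-20952603: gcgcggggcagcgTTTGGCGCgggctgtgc
Uhrf1, from position -185 of an internal start, chr17:56304117-56304146: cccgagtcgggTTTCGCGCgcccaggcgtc
Ezh2, from position 4 of the start, chr6:47595009-47595038: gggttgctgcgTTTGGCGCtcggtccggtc
Suz12, from position -219 of the start, chr11:79992876-79992905: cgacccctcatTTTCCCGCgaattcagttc
The *Dnmt1* and *Uhrf1* matches lie inside the gene as RefSeq bounds it, near a start site downstream of the outermost one. *Dnmt3b*, which fell at each stage as *Dnmt1*, *Uhrf1* and *Ezh2* did, had none of these letters in its window. *Dnmt3a*, *Tet1*, *Tet2*, *Tet3* and *Ezh1* had none either. All 10 members had a window richer in CpG than the median window, which holds 7, from 17 for *Tet1* to 57 for *Tet2*. The windows with a match held 31 (*Ezh2*) to 41 (*Suz12*) CpG, and each motif holds a CpG itself. The share of all windows is therefore no matched background, and enrichment was not tested. Apart from the 4 motifs, the letters CCAAT were searched for in the same windows. They occurred in windows of 5 members (*Dnmt1*, *Uhrf1*, *Tet3*, *Ezh2* and *Suz12*), and in 37.4% of all windows. Binding was not measured in these samples, and a match is a description of sequence only.

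*Dnmt3a*, a de novo methyltransferase (chromosome 12, 3801559 to 3914443), was highest at E14.5. FPKM was 34.77, 35.95 and 32.83 at E10.5, 36.92, 45.47 and 46.91 at E14.5, and 29.64, 32.06 and 30.64 at E16.5. All E14.5 samples lay above all others, although E14.5 replicate 1 was within 1 FPKM of the highest pNC sample. *Dnmt3a* rose between E10.5 and E14.5 (log2 fold change 0.35, SE 0.10, edgeR adjusted p = 0.0129) and fell between E14.5 and E16.5 (-0.32, SE 0.10, edgeR adjusted p = 0.0342). The rise was 0.46 without E14.5 replicate 1. The later fall was past the threshold without that replicate (-0.42, edgeR adjusted p = 0.000915), but was lost (edgeR adjusted p 0.0511 to 0.119) when any one of 7 other samples was left out and when only the stages compared were fitted (0.0611). Between E10.5 and E16.5 the log2 fold change was 0.04 (SE 0.10, edgeR adjusted p = 0.766), while mean FPKM at E16.5 was 89.2% of that at E10.5 with no overlap. The sign of that change thus depended on the scaling, being -0.11 with plain library totals instead of edgeR's TMM factors.

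The transcript length that RSEM assigned to *Dnmt3a*, an average weighted by the estimated isoforms, also differed between stages. It was 9273, 9185 and 9163 bases in the pNC samples, 9579, 9478 and 9475 at E14.5, and 9655, 9457 and 9553 at E16.5. All pNC values lay below all corneal values, with a difference that was not tested. Among the annotated transcripts of *Dnmt3a* in GENCODE M21, the long form NM_007872 spans 9685 bases and starts at position 3807030 of chromosome 12, a second long form NM_001271753 spans 8737 bases, and the short form NM_153743, which starts inside the gene at position 3891744, spans 5424 bases. The files give 1 value per gene, so levels of these isoforms were not analysed here.

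*Dnmt3b*, the other de novo enzyme (chromosome 2, 153649411 to 153687730), was the least abundant of the methyltransferases at every stage. Its FPKM was 9.82, 11.80 and 9.78 at E10.5, 3.27, 4.08 and 3.85 at E14.5, and 1.37, 1.89 and 2.03 at E16.5. The 3 stages were fully separated. *Dnmt3b* fell by 1.51 on the log2 scale to E14.5 (SE 0.16, edgeR adjusted p = 2.48e-05) and by 0.91 from there to E16.5 (SE 0.18, edgeR adjusted p = 0.00352). Overall the log2 fold change was -2.41 (SE 0.17, edgeR adjusted p = 6.72e-07), and the steps were -1.41 and -1.0004 without E14.5 replicate 1. The E16.5 values rest on 48 to 76 counts per sample, fewer than for any other member.

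As a family, the *Dnmt* genes summed to 124 ± 5.13 FPKM (SD, n = 3) in the pNC, 93.0 ± 15.3 in E14.5 corneas and 57.9 ± 2.71 in E16.5 corneas. *Dnmt1* made up 63.8% ± 2.04 of this sum in the pNC, 49.4% ± 2.43 in E14.5 corneas and 43.8% ± 1.86 in E16.5 corneas. The share of *Dnmt3a* went from 27.8% ± 1.06 to 46.5% ± 2.22 and 53.2% ± 2.03, so that it became the most abundant of the 3 in every E16.5 sample. *Dnmt3b* held 8.43% ± 0.977, 4.04% ± 0.280 and 3.03% ± 0.470. Per sample, *Dnmt1* stood at 2.13 to 2.44 times *Dnmt3a* in the pNC, at 0.954 to 1.15 times in E14.5 corneas and at 0.769 to 0.900 times at E16.5. The E14.5 shares without replicate 1 were 50.8%, 45.3% and 3.89% for *Dnmt1*, *Dnmt3a* and *Dnmt3b*. With 3 samples per stage, an exact permutation test cannot give a p below 0.1, and the shares are given as a description.

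**Figure D3:**
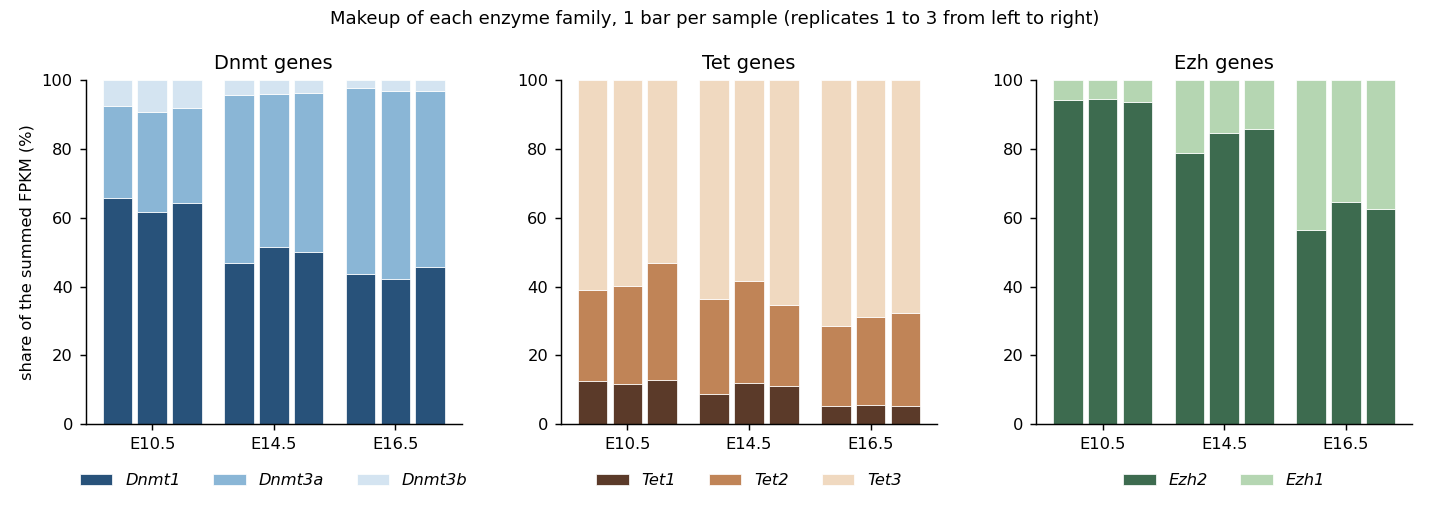
Share of each gene in the summed FPKM of its family (vertical axis, percent), 1 bar per sample, with replicates 1 to 3 from left to right within each stage. *Dnmt3a* widens from 27.8% to 53.2% of the *Dnmt* sum, *Tet3* from 58.0% to 69.4% of the *Tet* sum, and *Ezh1* from 5.98% to 38.9% of the *Ezh* sum between E10.5 and E16.5.

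The TET enzymes did not all move one way. *Tet1* (chromosome 10, 62804570 to 62887469), known for its high level in pluripotent cells, was low throughout, with FPKM values of 3.18, 3.02 and 3.05 at E10.5, 2.77, 3.76 and 3.28 at E14.5, and 1.88, 1.85 and 1.81 at E16.5. The pNC and E14.5 samples overlapped, and all E16.5 samples lay below both. Its log2 fold change was 0.07 (SE 0.11, edgeR adjusted p = 0.588) from E10.5 to E14.5, where the sign turned to -0.02 without E14.5 replicate 2. *Tet1* fell by 0.66 (SE 0.11, edgeR adjusted p = 0.00171) from E14.5 to E16.5, and by 0.59 (SE 0.11, edgeR adjusted p = 0.000663) from E10.5 to E16.5. Without E14.5 replicate 1, the lowest of its stage, the first step was 0.19 (edgeR adjusted p = 0.0909) and the second -0.77.

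*Tet2* (chromosome 3, 133463677 to 133545136), well studied as a gene mutated in blood cell disorders, had FPKM values of 6.73, 7.20 and 8.04, then 8.76, 9.27 and 6.99, then 8.33, 8.48 and 9.23 over the stages. The E14.5 samples overlapped both other stages, while every E16.5 sample lay above every pNC sample. The log2 fold changes were 0.17 (SE 0.11, edgeR adjusted p = 0.197) to E14.5 and 0.22 (SE 0.11, edgeR adjusted p = 0.13) from there on, and 0.14 and 0.25 without E14.5 replicate 1. *Tet2* rose between E10.5 and E16.5 (0.39, SE 0.11, edgeR adjusted p = 0.00677), which no longer passed when libraries were scaled by their totals (0.24, edgeR adjusted p = 0.0756). Without E14.5 replicate 3, the lowest of its stage, the rise to E14.5 passed the threshold as well (0.27, edgeR adjusted p = 0.0424).

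*Tet3* (chromosome 6, 83362373 to 83457208), known for its part in the oxidation of the paternal genome in the zygote, was the most abundant TET gene in every sample. Its FPKM was 15.45, 15.25 and 12.63 in the pNC, 20.25, 18.32 and 19.31 at E14.5, and 25.72, 22.76 and 23.14 at E16.5. Each stage lay wholly above the one before. *Tet3* rose by 0.40 (SE 0.10, edgeR adjusted p = 0.0044), then by 0.47 (SE 0.10, edgeR adjusted p = 0.00423), and by 0.87 in all (SE 0.10, edgeR adjusted p = 1.33e-05), short of 2-fold. Both steps held without E14.5 replicate 1 (0.38 and 0.50). The summed *Tet* FPKM went from 24.9 ± 0.980 (SD, n = 3) to 30.9 ± 1.17 and 34.4 ± 1.43, while the *Dnmt* sum went the other way. *Tet3* took 58.0% ± 4.16, 62.5% ± 3.59 and 69.4% ± 2.004 of it, *Tet2* 29.6% ± 3.85, 26.9% ± 3.02 and 25.3% ± 1.93, and *Tet1* 12.4% ± 0.512, 10.6% ± 1.69 and 5.37% ± 0.191. The E14.5 shares were 61.9%, 26.6% and 11.5% without replicate 1.

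In PRC2 the catalytic subunits moved in opposite directions. *Ezh2* (chromosome 6, 47530274 to 47595270) had FPKM values of 83.73, 85.06 and 85.02 in the pNC, 28.64, 45.41 and 41.06 at E14.5, and 14.31, 17.12 and 16.16 at E16.5. The pNC samples were nearly equal, the E14.5 samples the most spread with replicate 1 lowest, and no stages overlapped. The log2 fold change was -1.15 (SE 0.15, edgeR adjusted p = 8.74e-05) to E14.5 and -1.11 (SE 0.15, edgeR adjusted p = 0.000779) from E14.5 to E16.5, with -2.27 (SE 0.15, edgeR adjusted p = 5.32e-07) overall. Without E14.5 replicate 1 the first step was -0.98 (edgeR adjusted p = 1.9e-06), still a fall but no longer 2-fold, and the second -1.29.

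*Ezh1* (chromosome 11, 101191115 to 101226463) started low and climbed, with FPKM values of 5.19, 5.17 and 5.80 at E10.5, 7.71, 8.38 and 6.92 at E14.5, and 11.06, 9.47 and 9.69 at E16.5. Every sample lay above all samples of earlier stages. *Ezh1* rose by 0.49 (SE 0.10, edgeR adjusted p = 0.00205) and then by 0.56 (SE 0.10, edgeR adjusted p = 0.00234) on the log2 scale, and by 0.50 and 0.55 without E14.5 replicate 1. From E10.5 to E16.5 it rose by 1.05 (SE 0.10, edgeR adjusted p = 5.38e-06). This was just past 2-fold, and it was 0.99 without E16.5 replicate 1 and 0.90 when libraries were scaled by their totals, so the rise held in both but not the call. The ratio of *Ezh2* to *Ezh1* FPKM was 16.1, 16.45 and 14.7 in the pNC, 3.71, 5.42 and 5.93 at E14.5, and 1.29, 1.81 and 1.67 at E16.5. *Ezh2* thus remained the higher of the pair in 9 of 9 samples, while its share of their sum went from 94.0% ± 0.352 (SD, n = 3) to 82.9% ± 3.63 (84.999% without replicate 1) and 61.1% ± 4.17.

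*Suz12*, the core subunit that both catalytic forms need (chromosome 11, 79993106 to 80034123), stayed within a narrower range. FPKM was 23.65, 24.45 and 26.46 in the pNC, 17.33, 24.64 and 21.50 at E14.5, and 17.10, 15.75 and 16.90 at E16.5. E14.5 replicate 2 lay within the pNC range and replicate 1 just above the E16.5 samples. *Suz12* fell between E10.5 and E16.5 (log2 fold change -0.44, SE 0.12, edgeR adjusted p = 0.00594), while the steps were -0.25 (SE 0.12, edgeR adjusted p = 0.0884) and -0.19 (SE 0.12, edgeR adjusted p = 0.235). The step from E14.5 to E16.5 passed the threshold without E14.5 replicate 1 (-0.32, edgeR adjusted p = 0.00749) or with libraries scaled by their totals (-0.35, edgeR adjusted p = 0.0324), and the step before it without E14.5 replicate 2 (-0.36, edgeR adjusted p = 0.0248) but not without replicate 1 (-0.12, edgeR adjusted p = 0.25). In FPKM *Ezh2* was 3.21 to 3.54 times *Suz12* in the pNC, 1.65 to 1.91 times in E14.5 corneas and 0.837 to 1.09 times at E16.5.

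The order of the members by mean FPKM changed with the stage. In the pNC it ran *Uhrf1*, *Ezh2*, *Dnmt1*, *Dnmt3a*, *Suz12*, *Tet3*, *Dnmt3b*, *Tet2*, *Ezh1* and *Tet1*, and of neighbours in this order only *Ezh2* and *Dnmt1* had overlapping samples. At E14.5 the first 4 were *Dnmt1* (46.2 ± 9.56 FPKM, SD, n = 3), *Uhrf1* (43.4 ± 12.5), *Dnmt3a* (43.1 ± 5.40) and *Ezh2* (38.4 ± 8.70), which overlapped one another. Neighbouring pairs that overlapped at E14.5 were also *Suz12* with *Tet3*, *Tet2* with *Ezh1*, and *Dnmt3b* with *Tet1*. At E16.5 *Dnmt3a* came first (30.8 ± 1.22) with no overlap, then *Dnmt1* (25.4 ± 1.93) and *Tet3* (23.9 ± 1.61), which overlapped, then *Suz12*, *Ezh2* and *Uhrf1*, which overlapped as well. *Ezh1* and *Tet2* followed without overlap, and *Tet1* and *Dnmt3b* overlapped at the bottom. Among all genes listed at a stage, *Uhrf1* went from rank 626 of 18220 at E10.5 to rank 5393 of 18099 at E16.5, and *Dnmt3a* from rank 2488 to rank 2444.

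Cycling cells carry high levels of *Uhrf1*, *Dnmt1* and *Ezh2* in many tissues, so the values are set beside a list of 21 genes of DNA replication and mitosis, among them *Mki67*, *Pcna* and *Mcm2*. All 21 fell in each of the 3 comparisons, where 27.5%, 34.7% and 17.5% of all genes tested fell. Called lower were 10, 20 and 18 of the 21, against 7.97%, 15.4% and 5.47% of all genes. Their median log2 fold changes were -0.99, -2.27 and -1.19. Without E14.5 replicate 1, 7, 20 and 18 were called lower. Their summed FPKM was 1985 to 2120 in the pNC, 740 (replicate 1), 1099 and 1017 at E14.5, and 340 to 412 at E16.5, so E14.5 replicate 1 was lowest here too. Relative to the pNC mean, the sum stood at 18.2% at E16.5, *Uhrf1* at 13.9%, *Dnmt3b* at 16.8%, *Ezh2* at 18.8% and *Dnmt1* at 32.0%. *Suz12* stood at 66.7%, *Tet1* at 59.9%, *Dnmt3a* at 89.2%, *Tet2* at 118.5%, *Tet3* at 165% and *Ezh1* at 187%. The part of cycling in the fall of the first 4 was not tested. In bulk samples, fewer cells of a type and less RNA per cell cannot be told apart.

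**Figure D4:**
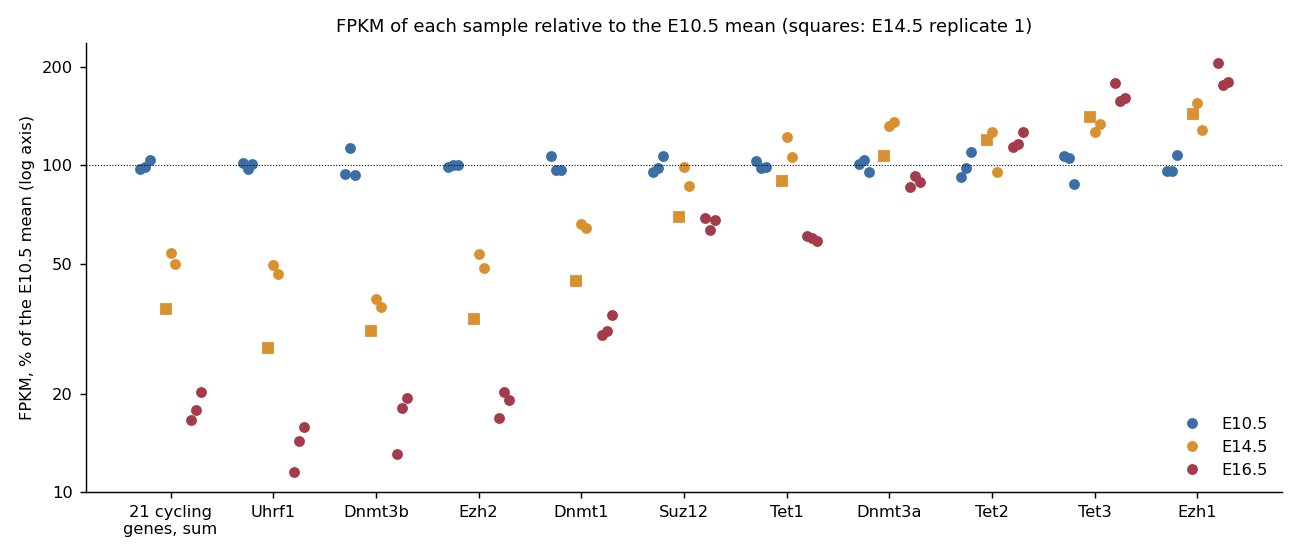
FPKM of each sample as a percentage of the E10.5 mean (vertical log axis) for the summed 21 cycling genes and for each member, coloured by stage, with squares for E14.5 replicate 1. At E16.5 *Uhrf1* (13.9%), *Dnmt3b* (16.8%) and *Ezh2* (18.8%) lie beside the cycling sum (18.2%), *Dnmt1* (32.0%) lies above it, and *Tet3* (165%) and *Ezh1* (187%) lie over the E10.5 line.

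Markers of other cell types also differed between the tissues. The 6 erythroid markers summed to 3905 to 6145 FPKM in the pNC, 158 to 657 in E14.5 corneas and 9.76 to 16.3 in E16.5 corneas. Most of the pNC sum came from the globin genes *Hbb-y*, *Hba-x* and *Hbb-bh1* (means of 2452, 1612 and 1067 FPKM). *Alas2* had means of 14.8, 8.30 and 6.31 FPKM over the stages, and *Klf1* of 3.83, 0.967 and 0.447. Between E10.5 and E16.5, 6 of 6 fell, where 34.7% of all genes tested fell. The 5 vascular endothelial markers summed to 87.2 to 153, 47.8 to 84.2 and 23.1 to 36.1 FPKM, and all but *Kdr* fell between the pNC and E16.5. The 6 myeloid markers summed to 27.9 to 28.9, 84.7 to 90.0 and 26.7 to 31.3 FPKM, highest at E14.5. Of 5 tested, 4 rose from E10.5 to E14.5, where 28.9% of all genes rose. *Ptprc* did not pass (means of 1.07 and 1.33 FPKM, edgeR adjusted p = 0.342). Within E14.5, *Mpo* ranged from 1.37 to 28.1 FPKM and *Lyz2* from 18.1 to 50.3. The 4 muscle markers summed to 11.2 to 13.5 FPKM in the pNC and to 0.21 or less in every cornea. The median sums of optic cup markers were 27.5, 5.64 and 3.92 FPKM over the stages, and those of glial markers 23.4, 9.25 and 9.63. The pNC samples were uneven, with optic cup sums of at least 27.5 FPKM in replicates 1 and 2 and 8.48 in replicate 3. Lens marker sums were 7.98, 6.61 and 1.46 FPKM in pNC replicates 1, 2 and 3. Of 4 optic cup markers tested, 2 fell between E10.5 and E16.5. *Six3* and *Tyrp1* did not pass (edgeR adjusted p = 0.615 and 0.378). Of the lens markers only *Cryab*, which many tissues express, was above 1.5 FPKM on average at any stage (2.597, 29.2 and 45.1 FPKM), and the lens factor *Foxe3* had means of 1.27, 0.137 and 0.133 FPKM. The part of these cells in the levels of the 10 members was not tested.

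Other genes of the same pathways were taken as 4 lists of 50 genes in all, of which 49 were tested and 1, *Dnmt3l*, was at or near 0 in all samples. Between E10.5 and E14.5, 4 were called higher and 3 lower, between E10.5 and E16.5 8 higher and 8 lower, and between E14.5 and E16.5 3 and 3. The median log2 fold changes were -0.06, -0.22 and -0.15, and these counts can be read against the shares of all genes given above. Without E14.5 replicate 1 the called numbers were 4 and 3, 8 and 8, and 4 and 3.

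Among 14 tested genes that work with DNA methylation (readers, repair factors and remodelers), 3 were called higher and 2 lower between E10.5 and E16.5, near the shares of all genes tested (19.4% and 15.4%), so the counts are no result about these genes. *Zbtb4*, a reader of methylated DNA, went from 1.44 ± 0.133 FPKM (SD, n = 3) in the pNC to 5.07 ± 1.89 and 9.18 ± 0.963 in the corneas (log2 fold change 2.82, SE 0.23, edgeR adjusted p = 1.57e-06 for E10.5 to E16.5, and 1.80 with edgeR adjusted p = 8.75e-05 for E10.5 to E14.5). *Hells*, a remodeler that DNA methylation requires, went from 37.7 ± 4.81 to 20.3 ± 3.87 and 6.87 ± 1.19, and fell by 1.40 from E14.5 to E16.5 (SE 0.17, edgeR adjusted p = 0.000508). *Gadd45g*, linked to stress and to demethylation, dipped at E14.5. Its FPKM was 21.3 ± 3.22, 5.68 ± 1.83 and 16.47 ± 5.31, a log2 fold change of -1.91 (SE 0.27, edgeR adjusted p = 0.000192) and then 1.69 (SE 0.28, edgeR adjusted p = 0.00156). *Gadd45b*, of the same family, rose by 1.91 from E14.5 to E16.5 (SE 0.31, edgeR adjusted p = 0.00143). *Uhrf2*, the paralog of *Uhrf1*, was chosen for mention after its values were seen, with mean FPKM of 43.3, 26.5 and 21.3 over the stages. The changes named here that involve E14.5 were, with its replicate 1 left out, 1.47 for *Zbtb4*, -1.53 for *Hells*, -2.11 and 1.89 for *Gadd45g* and 2.43 for *Gadd45b*. The step of *Gadd45b* from E10.5 to E14.5, which did not pass the test, then turned from 0.18 to -0.34 (edgeR adjusted p = 0.66 and 0.282).

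Of 9 further PRC2 subunits, 3 were called lower and 2 higher between E10.5 and E16.5, beside 15.4% and 19.4% of all genes tested. *Epop*, a PRC2 cofactor known from embryonic stem cells, went from 22.1 ± 2.13 FPKM to 4.34 ± 1.01 and 1.64 ± 0.447, with a log2 fold change of -2.36 (SE 0.19, edgeR adjusted p = 4.4e-06) to E14.5 and -3.60 (SE 0.22, edgeR adjusted p = 2.61e-07) to E16.5. The first of these was -2.21 without E14.5 replicate 1. The remaining values of this paragraph were picked after they were seen. *Eed*, the third core subunit beside *Suz12*, had mean FPKM of 30.2, 19.6 and 15.4 and fell by 0.82 from E10.5 to E16.5 (SE 0.11, edgeR adjusted p = 4.36e-05). *Mtf2*, which tethers PRC2 to CpG islands, fell by 1.35 (SE 0.11, edgeR adjusted p = 1.61e-06) over the same interval. The related *Phf1* and *Phf19* rose by 1.18 and 1.65 (edgeR adjusted p = 1.58e-05 and 0.000808), *Phf19* from a mean of only 0.570 FPKM.

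Polycomb repressive complex 1 (PRC1) reads the mark of PRC2 and adds its own to histone H2A. Of 20 PRC1 genes, 3 were called higher and 3 lower between E10.5 and E16.5, no more than the shares of all genes tested (19.4% and 15.4%). *Cbx6*, a chromobox reader subunit, rose from 11.4 ± 0.287 FPKM to 33.7 ± 8.63 and 59.8 ± 7.15 (log2 fold change 2.53, SE 0.16, edgeR adjusted p = 3.35e-07). Further chromobox genes were looked at after this was seen. *Cbx7* rose as well, by 2.13 (edgeR adjusted p = 5.1e-06), *Cbx2* fell by 2.40 (edgeR adjusted p = 4.01e-07) from 52.8 to 9.02 FPKM, and *Cbx8* had a log2 fold change of -0.29 (edgeR adjusted p = 0.212). The catalytic subunits *Rnf2* and *Ring1* changed by -0.30 and 0.77 (edgeR adjusted p = 0.00598 and 3.06e-05). A list of 6 genes was taken as acting against the Polycomb marks (*Kdm6a*, *Kdm6b*, *Bap1*, *Asxl1*, *Asxl2* and *Asxl3*). Of these, 2, 4 and 1 passed at adjusted p alone in the 3 comparisons, each by less than 2-fold. Among all genes tested 56.4%, 69.8% and 35% passed. The H3 lysine 27 demethylases *Kdm6a* and *Kdm6b* had means of 13.0 to 14.2 and 20.3 to 22.2 FPKM.

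**Figure D5:**
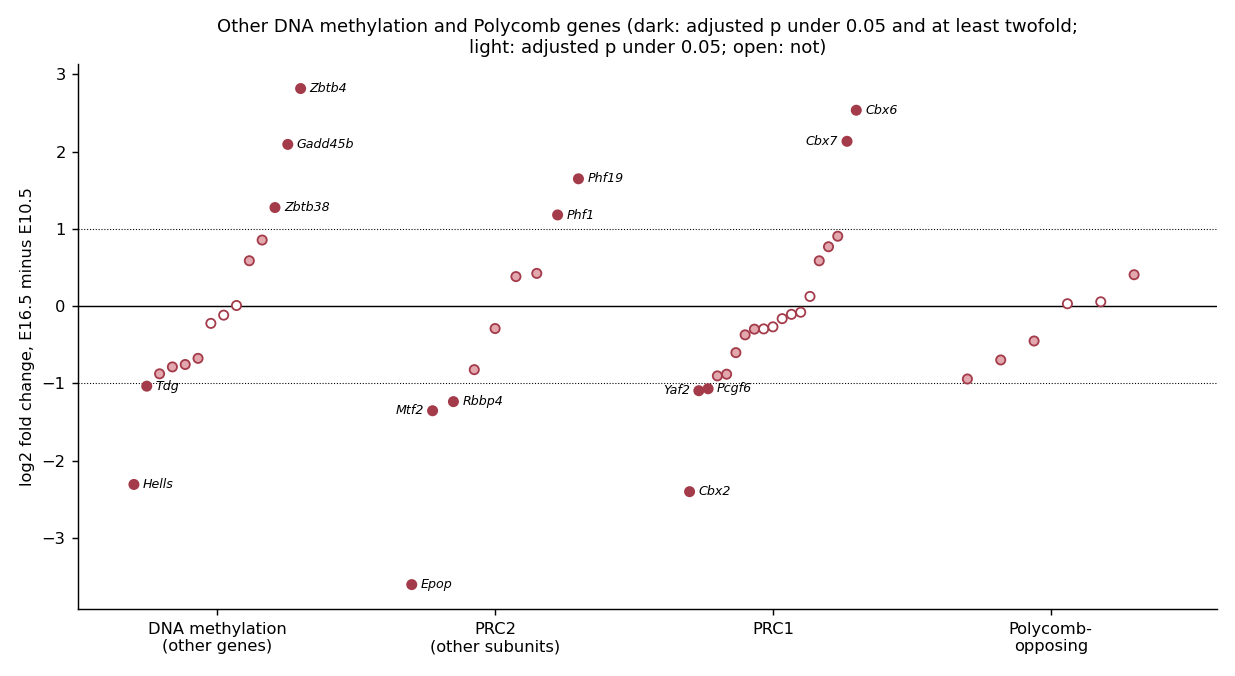
log2 fold change from E10.5 to E16.5 (vertical axis, edgeR) of 48 of the 49 tested genes that work with the members, in 4 lists along the horizontal axis, each sorted by value; dark points have an adjusted p under 0.05 and an at least 2-fold change (dotted lines), light points an adjusted p under 0.05 only, and open points neither. *Epop* (-3.60) lies lowest, and *Zbtb4* (2.82) and *Cbx6* (2.53) highest. None of the 6 genes in the list labelled Polycomb-opposing passes a dotted line.

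Of the genes listed here that these systems classically silence, most were nearly absent at all stages. The lists cover only a part of such genes, and the reason for the low levels was not tested. Of 41 Polycomb targets (39 *Hox* genes, *Cdkn2a* and *Cdkn2b*), 29 were listed in any sample, 1 had enough counts for a test, and the highest FPKM of any *Hox* gene was 0.69 (*Hoxb2*, in 1 E14.5 sample). *Cdkn2b*, an inhibitor of the cell cycle, was at 0 to 0.08 FPKM in the pNC, 2.48 to 3.54 in E14.5 corneas and 1.56 to 2.07 at E16.5. It was called higher at E14.5 and E16.5 than at E10.5 (edgeR adjusted p = 7.71e-06 and 9.54e-06, the former 2.91e-06 without E14.5 replicate 1), and no fold is given since the pNC level is close to 0. *Cdkn2a* was not tested, with means of 0.0867, 0.897 and 0.253 FPKM. Of 10 germline genes known to be silenced by DNA methylation, 7 were listed, and *Sycp3* alone reached a mean of 1 FPKM (1.71 ± 0.485, 0.950 ± 0.0608 and 1.29 ± 0.603 over the stages, SD, n = 3). *Sycp3* did not pass the test in any comparison (edgeR adjusted p 0.0973, 0.578 and 0.302).

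For each member the genes with the most similar course were sought among 10865 genes, by the root mean square (RMS) difference of log2 counts scaled to library size over the 9 samples after centring each gene. The nearest gene to *Uhrf1* was *Cdca8* (RMS 0.0431), a subunit of the chromosomal passenger complex in mitosis, followed by *Pimreg* and *Exo1*. The nearest to *Ezh2* was *Lig1* (0.0658), the ligase that joins Okazaki fragments, followed by *Pde3b* and *Nsd2*. For *Dnmt1* it was *Nde1* (0.0420), a centrosome gene, with *Jpt2* and *Nup62* next, and for *Dnmt3b* it was *Ccnf* (0.135), a cyclin, with *Gng3* and *Rbm38* next. The nearest to *Suz12* were *Smarcal1* (0.0442), *Get3* and *Hdac3*, and the nearest to *Dnmt3a* were *Macf1* (0.0406), *Zfp251* and *Phyh*. *Tet1* was closest to *N4bp2* (0.0854), *Noct* and *Zfp213*, *Tet2* to *Cyld* (0.0683), *Brox* and *Pnpla8*, and *Ezh1* to *Srpk2* (0.0641), *Rnf149* and *Sypl*. Among the 3 genes nearest to *Tet3* were *Arfgef2* (0.0492) and *Hdac7* (0.0498). Within the 10 genes the closest pairs were *Tet3* with *Ezh1* (0.163), *Dnmt3b* with *Ezh2* (0.201), and *Uhrf1* with *Ezh2* and *Tet1* with *Suz12* (0.207 each). All these values come from the same 9 libraries, and they describe likeness only.

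Reads from overlapping genes could enter the values of some members, since the strand used in counting is not given in the sources used here. *Dnmt3aos*, which overlaps *Dnmt3a*, reached at most 0.32 FPKM, and *B230319C09Rik* inside *Tet3* at most 0.33, against at least 29.64 for *Dnmt3a* and 12.63 for *Tet3*.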

How the data were processed

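RNA-Seq libraries from 9 samples, 3 per stage, were grouped by the stage in their labels. The authors filtered the reads, mapped them with Bowtie2 to reference genes and with HISAT to GRCm38, and quantified genes with RSEM (versions are not given in the sources used here). The deposited expected counts are RSEM's estimates of reads per gene, not normalized, and the deposited FPKM values were scaled by the authors to transcript length and library size. Only genes above 0 are listed. FPKM is scaled to each library's total, while the tests also used TMM factors, which were 0.918 to 0.940 at E16.5 and above 1 otherwise, so the scales differ in level at E16.5.

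Symbols and coordinates were matched by Entrez identifier to RefSeq genes of GRCm38 (19312 of 19369). Expected counts were rounded, filtered with filterByExpr, scaled by TMM and fitted with edgeR 4.0.16 in R 4.3.3 (quasi-likelihood test, all 9 samples, Benjamini-Hochberg adjustment over 14771 genes). The standard error was the absolute log2 fold change divided by the square root of F. Calls needed an adjusted p under 0.05 and a log2 fold change of at least 1. The code was tested on simulated data. Replicates differed by more than counting noise (chi-square per degree of freedom 3.03 to 27.9), so each counted as 1. Replicate numbers were not taken as pairs.

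Alternatives were other scalings, no filter, DESeq2 1.42.0, limma 3.58.1 on log2(FPKM + 1), the NOISeq criterion of the study recomputed from FPKM, a replicate block, and leaving out each sample. The members, gene lists, motifs and tests were chosen with earlier results of these data known. All 10 members were named, and of the other pathway genes, for each comparison, the 3 with the largest change among those called with a mean of at least 5 FPKM in either stage, of silenced targets those with a mean of at least 1 FPKM, and for each member the 3 most similar genes with a mean of at least 5 FPKM in some stage. Exceptions are marked, and a few genes that the rules name are not reported here. Sequences are from RefSeq (GRCm38.p6).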

Additional observations from a re-analysis of the deposited data

How the results depend on the processing

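Directions and calls of the members were mostly kept. Over settings that left out no sample, 232 member fold changes kept their direction and side of the call, 4 became weaker, 1 stronger and 3 reversed. *Ezh1* was the only member called higher from E10.5 to E16.5, and this count was 0 with library totals in place of TMM, with limma and with NOISeq, where its log2 fold change was 0.90, 0.79 and 0.90. *Dnmt3a* reversed over that interval, to -0.11 with library totals, -0.16 with limma, -0.17 with NOISeq and its range on leaving out each sample in turn was -0.0081 (without E10.5 replicate 3) to 0.0655. *Tet1* from E10.5 to E14.5 ranged from -0.0241 (without E14.5 replicate 2) to 0.1859. *Dnmt3b* from E10.5 to E14.5 had a NOISeq probability of 0.798, just under 0.8, and *Dnmt3b* from E14.5 to E16.5 was called at -1.07 with library totals. Library totals moved the median of all genes to -0.15 from E10.5 to E16.5 and to -0.19 from E14.5 to E16.5, with 2503 genes called higher and 2695 lower (2862 and 2282 with TMM) and 731 and 1099 (924 and 808 with TMM). The causes were not tested.

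With adjusted p alone the members called higher numbered 3, 3 and 2, and those lower from E14.5 to E16.5 numbered 6. The other pathway genes numbered 12 higher and 19 lower, 16 and 22, and 12 and 10, since more genes pass without a fold minimum. From E10.5 to E16.5, where 8 were called each way, limma called 5 of them higher and 9 lower, NOISeq 6 and 11, and edgeR with library totals 8 and 12, and from E10.5 to E14.5 NOISeq called 1 higher.

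When each sample was left out in turn, the members called lower ranged from 2 to 3 (E10.5 to E14.5), 4 to 4 and 1 to 3 (E14.5 to E16.5, with 1 without E14.5 replicate 2), and those called higher from E10.5 to E16.5 from 0 (without E16.5 replicate 1) to 1. *Dnmt3b* from E14.5 to E16.5 was called without E14.5 replicate 1 (-1.0004) or E16.5 replicate 3 (-1.03).

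The replicate block left the counts of members called at 0 and 3, 1 and 4, and 0 and 2 (higher and lower). The pairing of numbers had no support in the data, with a mean correlation of deviations of -0.0164 over 9 pairs with the same number and 0.00917 over 18 with different numbers. At adjusted p alone *Dnmt3a* from E14.5 to E16.5 was lost with the block (edgeR adjusted p = 0.052).

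Shares computed from expected counts, which are not per length, were 54.1%, 36.6% and 31.1% for *Dnmt1* over the stages, 40.5%, 61.1% and 67.3% for *Dnmt3a*, 5.45%, 2.27% and 1.65% for *Dnmt3b*, 16.2%, 13.8% and 7.11% for *Tet1*, 25.2%, 23.0% and 21.8% for *Tet2*, and 90.8%, 75.4% and 49.8% for *Ezh2*, with the same direction over time. Counts were lowest for *Dnmt3b* at E16.5 (48 to 76 per sample). They were 198 to 217 for *Ezh1* in the pNC and 230 to 235 for *Tet1* at E16.5. Counting error is therefore not small for these members beside the spread of 3 samples.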
